A study of Homo sapiens with 21 samples.

Results

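Mitochondrial ribosomal protein genes were followed through a TGFβ time course in HMLE cells. They were taken as the symbols that begin with MRPL or MRPS and a number and that had a mean normalized signal of at least 10 over all libraries. This gave 77 members of 23201 symbols listed, 13343 of which reached the same mean and were tested. Of the members, 75 were protein-coding and 2, MRPL42P5 and MRPL45P2, were pseudogenes by symbol. The mean signal of the members just inside the minimum was 13.4 for MRPL45P2 and 18.5 for MRPL42P5, the next was MRPS18C at 170, and just outside it MRPS24 had a mean of 0.433, with no library above 1.06. HMLE cells are human mammary epithelial cells that were immortalized and are kept as an established cell line, and TGFβ is a cytokine that drives epithelial cells towards a mesenchymal state. The groups were untreated cells (d0) and cells on day 1, 4, 7, 10, 15 and 20 of TGFβ (d1 to d20), all of the same line and seeded at 1 density, with 3 libraries each, described as biological triplicates.

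Libraries held between 18847917 and 22667754 reads. Of the basal epithelial markers, KRT5 and KRT14 had mean signals of 224349 and 72774 at d0, and the mesenchymal marker FN1 rose from 4243 to 539309 at d20. Of the 3 immune markers, PTPRC and CD3E had means of at most 0.677 at every timepoint, while CD68, known from macrophages, had 371 at d0, 803 at d4, 380 at d10, 753 at d15 and 648 at d20. Of the 3 endothelial markers, CDH5 had at most 0.353, VWF lay between 4.50 and 8.74, and PECAM1 had 41.3 at d0 and 9.06 to 14.7 later. The part of CD68 and PECAM1 in the results was not tested. One of the d7 libraries stood apart, with a root mean square log2 difference of 0.46 and 0.47 from the other d7 libraries where other pairs of a timepoint lay between 0.21 and 0.24, so values that rest on d7 are also given without it. The mean and SD of each value at a timepoint rest on 3 cultures only. The tests take the spread of each gene between cultures from all timepoints together. The d7 library that stood apart therefore also enters the SE and p-values of contrasts without d7.

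Mitochondria hold a ribosome of their own, built of a large and a small subunit, which translates the few messages encoded in mitochondrial DNA, all of them for subunits of the respiratory chain and ATP synthase. Its RNAs come from the mitochondrial genome, but every protein of it is encoded in the nucleus, made on cytosolic ribosomes and imported. Some of these proteins descend from bacterial ribosomal proteins, and others were added in the evolution of mitochondria. The genes are expressed in every nucleated cell type, and their protein products are needed in matched amounts within each subunit.

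As a group, the members went down, up, down and up again over the 20 days. The summed signal of the 75 protein-coding members was 92048 ± 2166 (SD, n = 3) at d0 and 91176 ± 899 at d1. It was 70218 ± 436 at d4 and 70074 ± 5415 at d7. It then reached 99129 ± 1409 at d10, its highest mean with the deposited scaling, and 66236 ± 268 at d15, its lowest. At d20 it was 90551 ± 1345. Every d4, d7 and d15 library lay below every d0, d1, d10 and d20 library, and the d20 libraries lay within or just below the d0 range. Among the d7 libraries the sums were 66201, 67760 and 76262, and the highest belonged to the library that stood apart. In bulk RNA, fewer cells of a type and less RNA per cell cannot be told apart.

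**Figure D1:**
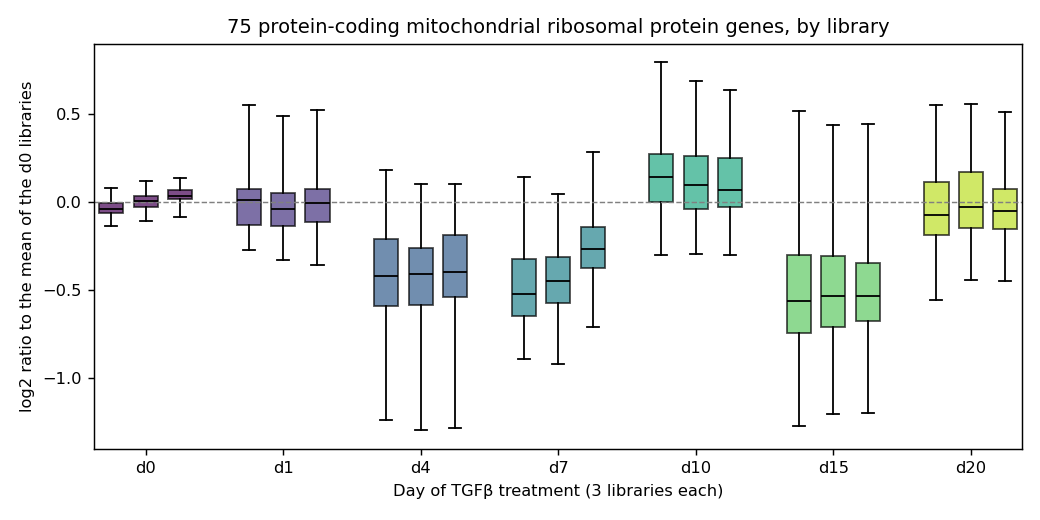
Log2 ratio of each of the 75 protein-coding members to its mean over the d0 libraries (vertical axis), with 1 box for each of the 21 libraries grouped by day (horizontal axis). Boxes span the quartiles with a line at the median, and whiskers reach the lowest and highest member. The medians lie between -0.53 and -0.27 at d7, between -0.42 and -0.40 at d4 and between -0.56 and -0.54 at d15, and between 0.07 and 0.14 at d10.

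Each day was compared with d0 gene by gene with limma on log2(signal + 1), with Benjamini-Hochberg adjustment over all genes tested, and a gene was called at an adjusted p under 0.05. The call asks for no minimum fold, and large parts of the transcriptome passed it. At d1, 11 of the 77 members were higher and 15 lower, where 31.3% of all genes tested were called higher and 28.5% lower, and 5 were higher without the first d0 library and 7 without any one of the d1 libraries. At d4, 0 were higher and 61 were lower, against 36.9% and 35.3% of all genes. At d7, 0 were higher and 66 were lower, against 34.6% and 32.6% of all genes, and without the library that stood apart 67 were lower. At d10, 34 were higher and 13 lower, against 37% and 30.7% of all genes. At d15, 2 were higher and 64 lower, against 39.2% and 37.3%. At d20, 16 were higher and 23 lower, against 32.5% and 30.2%. The members' share of lower calls was above that of all genes at d4, d7 and d15, and their shares at d1 and d20 were near or below the background. At d10 their share of higher calls, 44.2%, was somewhat above the 37% of all genes, and the d10 counts depended on the scaling.

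The size of these shifts was modest for most members. The median log2 fold change of the protein-coding members was -0.42 at d4, -0.41 at d7 and -0.54 at d15, and it was -0.03 at d1, 0.10 at d10 and -0.06 at d20, while the median of all genes tested lay between 0.00 and 0.03. At d15, 32 members were lower by at least 1.5-fold, and 3 of these, MRPL1, MRPL20 and MRPL35, by at least 2-fold. The share of all genes passing these folds is not given here. The lower quartile of the d15 log2 fold change was -0.72 over the protein-coding members and -0.43 over all genes tested. The SDs of these changes were 0.33 and 0.99. The highest timepoint mean was between 1.15 and 2.80 times the lowest, with a median of 1.64 over the protein-coding members and 1.77 over all genes tested. Rescaling the libraries to the same total moved the median of all genes to between -0.20 and -0.14 on every treated day against d0, and with that scaling the members' median at d10 was -0.12, so the direction at d10 depended on the scaling. Relative to the median of all genes, the members stood at -0.42, -0.42 and -0.56 at d4, d7 and d15 with the deposited scaling and at -0.43, -0.42 and -0.56 after rescaling.

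Between neighbouring timepoints the turns were as large as the differences from d0. Against d1, 63 members were lower at d4 and 1, MRPL10, was higher, where 32% and 32.9% of all genes were called, and the protein-coding median was -0.38. Against d7, 71 were higher at d10 and 1, also MRPL10, was lower (36.2% and 35.2% of all genes), with a median of 0.50, and without the d7 library that stood apart 70 were higher and 2 lower. Against d10, 68 were lower at d15 and 4 higher (40.5% and 39.3% of all genes), with a median of -0.60. Against d15, 63 were higher at d20 and 3 lower (37.7% and 36.3% of all genes), with a median of 0.48, and 1 was lower without the first or the second d15 library or the first d20 library. The first and second of these 4 contrasts were added after the values were seen, and neighbouring contrasts share libraries. Over the 7 timepoints all 77 members varied by the moderated F test, as did 95.9% of all genes tested, a share near the background.

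By timepoint means, d15 was the lowest for 46 of the 77 members (59.7%), d4 for 17 and d7 for 12, d10 for 2, and neither d0, d1 nor d20 for any. Over all genes tested d15 was the lowest for 25.9%. With the deposited scaling, the highest mean was at d10 for 45 members (58.4%) and at d0 for 18, against 21.1% and 19.3% of all genes. The ranking was not repeated after rescaling to the same total, where the members' median log2 fold change at d10 against d0 was -0.12. Without the d7 library that stood apart, d15 was the lowest for 36 members and d7 for 23.

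**Figure D2:**
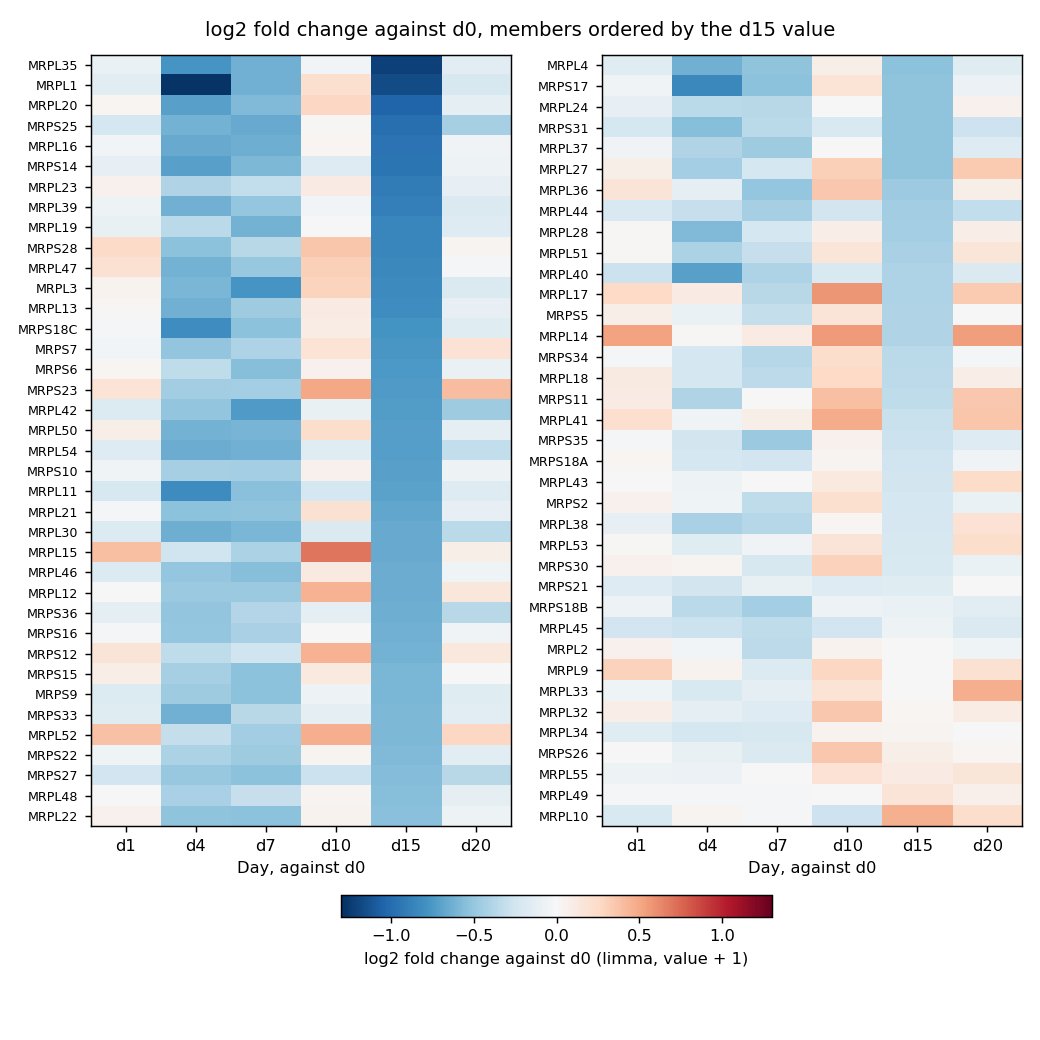
Log2 fold change of each protein-coding member (rows, ordered by the d15 value from most negative to most positive, continued in the right panel) on each treated day against d0 (columns). Blue is lower and red higher than d0, and the d15 column runs from -1.21 for MRPL35 to 0.46 for MRPL10.

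Both subunits and both evolutionary classes took part. The shares of all genes tested called lower were 35.3% at d4 and 37.3% at d15, and 39.2% were called higher at d15. Of the large subunit, 49 protein-coding members including MRPS30 and MRPS18A, which sit there despite their symbols, 38 were lower at d4 and 40 at d15, with medians of -0.39 and -0.52. The remaining MRPS symbols, taken as the small subunit, were 26, of which 23 were lower at d4 and 24 at d15, with medians of -0.44 and -0.58. They include MRPS36, lower on both days, whose product is now assigned to a metabolic enzyme complex. Among the 45 members with a bacterial counterpart, 38 were lower and 1 was higher at d15, with a median of -0.59. Among the 30 mitochondria-specific members, 26 were lower and 1 was higher, with a median of -0.49. Against d10, the d15 medians were -0.76 for the members with a bacterial counterpart and -0.50 for the mitochondria-specific ones, and this difference between the classes was not tested.

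The promoters of the members are shown because the genes moved together. A window from 250 bases before to 50 after the RefSeq start site (build GRCh38.p14) was found for 66 of the 77 members. MRPL10, MRPL13, MRPL15, MRPL2, MRPL21, MRPL23, MRPL35, MRPL42P5, MRPL45P2, MRPS28 and MRPS36 had no entry. Of the windows below, MRPL1 and MRPL20 belong to genes with large decreases, MRPS12 to a small subunit gene that lies head to head with SARS2, and MRPL49 to 1 of the 2 members higher at d15. Capitals mark the letters of 4 motifs searched on both strands, the ETS core CCGGAAG, the YY1 motif AAGATGGC, the E-box CACGTG and the NRF1 core, all written 5′ to 3′ on the gene's strand.
MRPL1, chr4:77862580-77862879, plus strand: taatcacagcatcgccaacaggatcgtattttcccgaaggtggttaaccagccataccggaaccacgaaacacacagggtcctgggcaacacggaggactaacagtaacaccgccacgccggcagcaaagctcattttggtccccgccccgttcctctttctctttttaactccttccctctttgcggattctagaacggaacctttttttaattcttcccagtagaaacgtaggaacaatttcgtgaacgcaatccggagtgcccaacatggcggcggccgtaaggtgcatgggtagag
MRPL20, chr1:1407244-1407543, minus strand: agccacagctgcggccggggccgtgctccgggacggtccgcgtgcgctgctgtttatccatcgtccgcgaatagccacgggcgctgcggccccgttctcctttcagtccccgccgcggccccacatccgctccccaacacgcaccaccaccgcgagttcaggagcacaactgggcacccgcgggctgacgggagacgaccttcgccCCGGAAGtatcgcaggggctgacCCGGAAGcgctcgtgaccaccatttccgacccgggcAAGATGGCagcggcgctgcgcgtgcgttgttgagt
MRPS12, chr19:38930694-38930993, plus strand: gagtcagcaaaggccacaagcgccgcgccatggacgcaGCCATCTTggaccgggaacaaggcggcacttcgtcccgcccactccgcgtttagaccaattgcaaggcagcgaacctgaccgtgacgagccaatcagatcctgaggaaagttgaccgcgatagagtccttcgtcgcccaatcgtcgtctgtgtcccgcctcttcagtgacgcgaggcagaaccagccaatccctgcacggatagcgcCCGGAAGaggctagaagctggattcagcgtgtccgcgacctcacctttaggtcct
MRPL49, chr11:65121933-65122232, plus strand: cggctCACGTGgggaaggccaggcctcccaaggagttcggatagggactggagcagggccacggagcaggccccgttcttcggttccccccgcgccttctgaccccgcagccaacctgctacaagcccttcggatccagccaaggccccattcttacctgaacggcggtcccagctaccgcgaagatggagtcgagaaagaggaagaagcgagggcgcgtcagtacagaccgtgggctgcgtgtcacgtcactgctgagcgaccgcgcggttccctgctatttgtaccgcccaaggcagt
The MRPL20 window held 2 ETS cores and 1 YY1 motif, and that of MRPS12 held 1 of each. The MRPL1 window held none of the 4, and that of MRPL49 held 1 E-box near its upstream end.

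With 1 window for each gene, the ETS core, bound by factors such as GABP, was held by 28 of the 66 members (42.4%), by 18.9% of the 9253 genes tested that had a window and by 10.7% of all 27305. The YY1 motif was held by 19 members (28.8%), against 5.55% and 3.03%. It stood after the start site in 14 of these members, and in 342 of the 514 genes tested that held it. In 67 windows of cytosolic ribosomal protein genes the ETS core and the YY1 motif were held by 34.3% and 10.4%, and in 50 windows of nuclear OXPHOS genes (respiratory chain and ATP synthase) by 30% and 16%. At least 1 of both was held by 39 members and both by 8 (MRPL20, MRPL38, MRPL47, MRPL51, MRPL52, MRPS10, MRPS12 and MRPS18A). The NRF1 core was held by 8 members (12.1%, against 15.7% of genes tested and 8.78% of all windows), and the E-box, bound by MYC among others, by 6 (9.09%, 10% and 7.43%). The GC box GGGCGG was held by 60.6% of the members, 70% of genes tested and 44.6% of all windows. For CCAAT these shares were 30.3%, 36.6% and 35.7%, for TATAAA 3.03%, 5.46% and 12%, and for the CRE TGACGTCA 0%, 3.30% and 1.98%. Each match is a description of letters in the window and not a site. The members with and without an ETS core had d15 medians of -0.56 and -0.52, and those with and without a YY1 motif -0.56 and -0.52. The 40 members with a GC box had a d15 median of -0.43 and the 26 without one -0.61, and at d4 these medians were -0.34 and -0.45. None of these splits was tested.

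**Figure D3:**
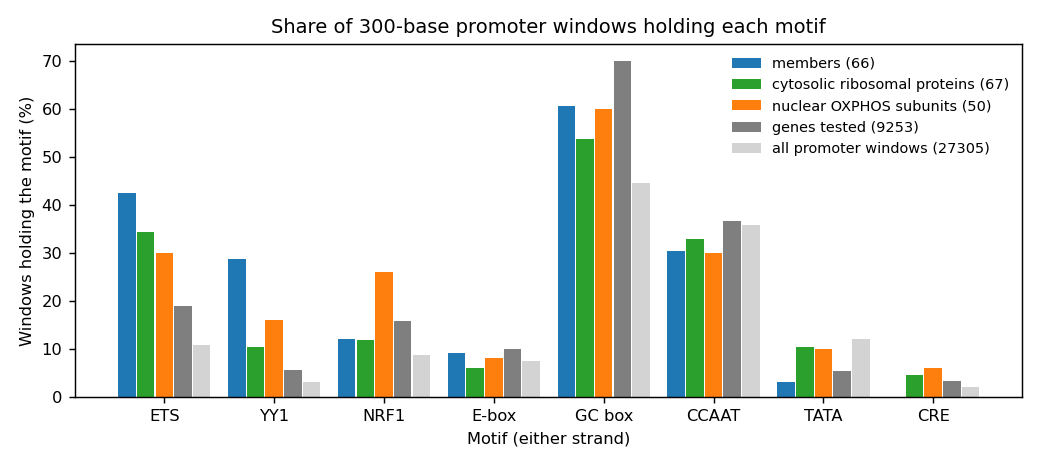
Percentage of promoter windows (vertical axis) that held each motif on either strand (horizontal axis), for 66 members, 67 cytosolic ribosomal protein genes, 50 nuclear OXPHOS genes, 9253 genes tested and all 27305 windows. The members' bars stand at 42.4% for the ETS core and 28.8% for the YY1 motif, against 34.3% and 10.4% of cytosolic ribosomal protein genes, 30% and 16% of OXPHOS genes and 18.9% and 5.55% of the genes tested.

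Several members share their promoter with a neighbour on the other strand. By the RefSeq start sites, 22 members lay head to head with another gene, and 14 such pairs had both genes tested. At d15, 8 of the 14 neighbours were lower and 1 was higher (all genes tested 37.3% and 39.2%), with a median of -0.34. The lower neighbours include MRPS11, which is itself a member and is counted here as the neighbour of MRPL46. In 7 pairs both genes were lower, and 1 pair had opposite calls. MRPS12, whose product lines the decoding centre, and SARS2, the mitochondrial seryl-tRNA synthetase, start 181 bases apart, and their d15 log2 fold changes were -0.61 and -1.12. MRPL46 and MRPS11, from the large and the small subunit, start 320 bases apart and stood at -0.65 and -0.33. MRPL14 and TMEM63B were the pair with opposite calls, at -0.39 and 1.11, and MRPL49 and FAU, which encodes a cytosolic ribosomal protein, stood at 0.17 and 0.07 (adjusted p = 0.189 for FAU). In the GENCODE annotation, exons of 33 of the 75 protein-coding members overlapped exons of another protein-coding gene. For 21 members such a gene lay on the opposite strand. Among them were MRPL49 with FAU and SYVN1, MRPS12 with SARS2, MRPL11 with PELI3 and MRPL51 with NCAPD2. Whether counting used strand is not given in the sources used here, so reads of such pairs may not be told apart. Strand would not part the overlaps on the same strand, which include those of MRPL12, MRPL30 and MRPS17.

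Of the large subunit, MRPL1 forms the L1 stalk, a mobile arm beside the exit site for tRNA. Its signals were 610, 607 and 647 at d0, 263, 252 and 254 at d4, and 270, 269 and 292 at d15. At d10 they were 744, 680 and 731, above all d0 libraries, and the d4 and d15 libraries lay below those of every other day. The log2 fold change was -1.27 ± 0.07 (SE) at d4 (adjusted p = 1.7e-12) and -1.16 ± 0.07 at d15 (4.94e-12), the largest decrease of any member at d4. Between d10 and d15 MRPL1 fell by 1.37 on the log2 scale, and from d15 to d20 it rose by 0.95. No motif of the 4 searched stood in its window.

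MRPL35 and MRPL20 encode counterparts of bacterial proteins that bind the large ribosomal RNA, and MRPL20 belongs to those that join the particle early in bacteria. MRPL35 read 1171, 1186 and 1261 at d0, 706, 695 and 714 at d4, and 498, 541 and 524 at d15. Its d15 libraries lay below all other libraries, and its d10 libraries, at 1149, 1143 and 1222, overlapped those of d0. The d15 log2 fold change was -1.21 ± 0.05 (adjusted p = 1.28e-14), the largest decrease of any member that day, and MRPL35 also had the largest F over the 7 timepoints. MRPL20 read 961, 1073 and 1053 at d0 and 515, 506 and 482 at d15, a log2 fold change of -1.04 ± 0.07 (4.33e-12). At d10, 1297, 1229 and 1207 put MRPL20 above every d0 library (0.27 ± 0.07, adjusted p = 0.000841).

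MRPL3, another protein of the large subunit core, had 1872, 1833 and 2460 at d7 against 3408, 3372 and 3654 at d0. The highest d7 value came from the library that stood apart, and all d7 values were below those at d0. Its log2 fold change of -0.77 ± 0.07 (adjusted p = 3.72e-09) was the largest decrease at d7, and it was -0.83 ± 0.07 at d15 (5.8e-10). MRPL42, a mitochondria-specific protein, differed by -0.74 ± 0.04 at d7 (1.76e-12) and was still lower at d20, with 1169, 1236 and 1268 against 1705, 1630 and 1703 at d0 (-0.46 ± 0.04, adjusted p = 4.82e-09). MRPL30, with the largest F after MRPL35, had tight replicates at 2339, 2320 and 2374 at d0 and 1496, 1475 and 1466 at d15, and it was lower than d0 on every treated day. The d20 value of MRPL30 was -0.35 ± 0.03 (adjusted p = 4.35e-09).

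The stalk that recruits translation factors to the ribosome is built of MRPL10 and copies of MRPL12, on a base that holds MRPL11, and its 3 genes took different courses. MRPL12 read 1995, 2085 and 2141 at d0, 2883, 2880 and 2761 at d10, and 1299, 1371 and 1327 at d15. The d10 libraries were above and the d15 libraries below all d0 libraries, with log2 fold changes of 0.45 ± 0.06 (adjusted p = 1.84e-06) and -0.64 ± 0.06 (7.66e-09). MRPL11 was lowest at d4, with 1010, 1032 and 1022 against 1742, 1788 and 1868 at d0 (-0.82 ± 0.05, 1.05e-12), and at d10 it was lower than at d0 (-0.23 ± 0.05, 0.000131). MRPL10 went the other way. It read 1344, 1379 and 1499 at d0, 1140, 1224 and 1141 at d10, and 2006, 1899 and 1910 at d15. The MRPL10 libraries of d15 lay above and those of d10 below all d0 libraries. The log2 fold change of MRPL10 was 0.46 ± 0.05 at d15 (adjusted p = 5.48e-08), the largest increase of any member that day, -0.27 ± 0.05 at d10 (0.000115) and 0.04 ± 0.05 at d4 (0.523). After rescaling to the same total, the d4 value of MRPL10 turned to -0.16 (adjusted p = 0.00609).

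**Figure D4:**
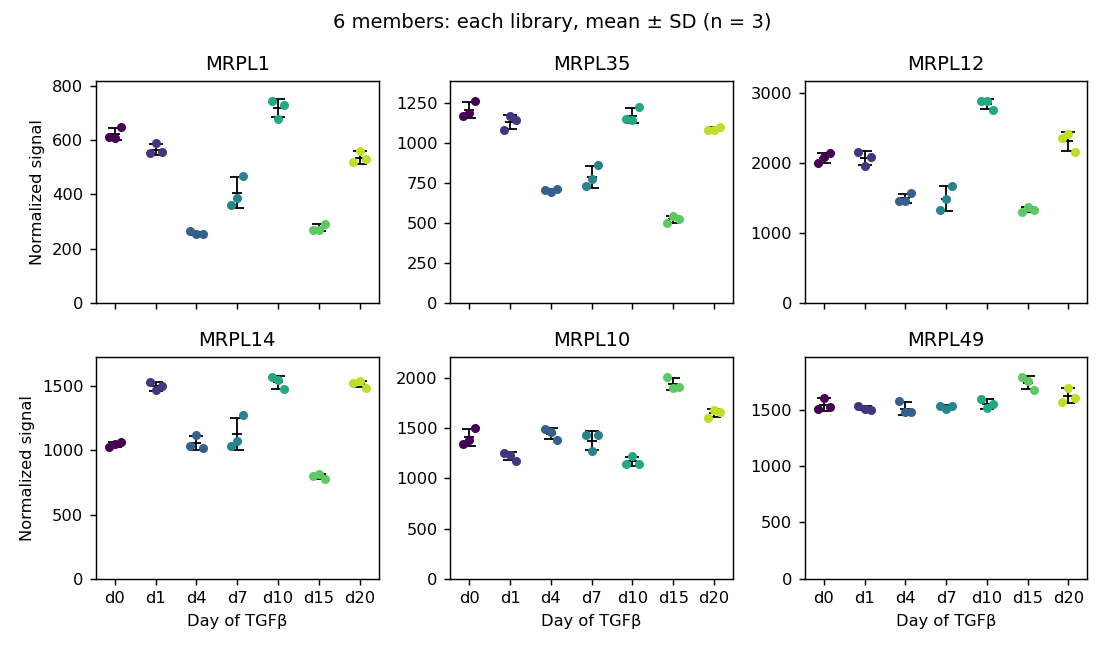
Normalized signal (vertical axes, each from 0) of 6 members by day of TGFβ (horizontal axes), with 1 point per library and the mean ± SD of 3 libraries. MRPL1, MRPL35, MRPL12 and MRPL14 are at or near their lowest at d15, where MRPL10 lies between 1899 and 2006 and MRPL49 between 1678 and 1790, above their d0 libraries.

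MRPL49, a mitochondria-specific large subunit protein, was the other member higher at d15. Its libraries read 1505, 1609 and 1527 at d0 and 1790, 1753 and 1678 at d15, which did not overlap, with a log2 fold change of 0.17 ± 0.04 (adjusted p = 0.000697). With libraries rescaled to the same total the MRPL49 difference was 0.01 (adjusted p = 0.813), so this call depended on the scaling, and its exons overlap those of FAU and SYVN1. MRPL45, which helps to tether the ribosome to the inner membrane, stood at -0.07 ± 0.05 at d15 (0.227) and had been lower at d1 (-0.25 ± 0.05, adjusted p = 0.000318). Against d10, MRPL45 was higher at d15 by 0.17 ± 0.05 (0.00497). The other protein-coding members without a call at d15 were MRPL2, MRPL9, MRPL32, MRPL33, MRPL34, MRPL55, MRPS18B and MRPS26.

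A few members rose on the first day. MRPL14, a protein at the interface with the small subunit, read 1023, 1049 and 1063 at d0 and 1531, 1467 and 1498 at d1, which lay apart (0.52 ± 0.06, adjusted p = 8.18e-08). It was back at 1036, 1121 and 1021 at d4, high again at d10 (0.55 ± 0.06, 2.35e-08) and d20 (0.54 ± 0.06, 3.82e-08), and lower than d0 at d15, with 801, 815 and 776 (-0.39 ± 0.06, 2.29e-06). MRPL14 thus had the largest increase of any member at d1 and at d20. MRPL15, a core protein with a bacterial counterpart, showed the largest at d10, with 2009, 1869 and 1805 against 1176, 1093 and 1217 at d0 (0.70 ± 0.07, 4.9e-09), and at d15 it read 733, 725 and 748. Between d10 and d15 MRPL15 fell by 1.36 on the log2 scale (adjusted p = 5.91e-14). MRPL52 rose by 0.38 ± 0.10 at d1 (0.00203), a call lost after rescaling to the same total (adjusted p = 0.103). MRPL17, near the exit tunnel of the ribosome, differed by 0.57 ± 0.07 at d10 (6.96e-07), and MRPL33 by 0.47 ± 0.06 at d20 (7.65e-07). Among the members called lower at d1, MRPL40 had the largest decrease, -0.28 ± 0.06 (0.00053).

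MRPL41 and MRPL44 were followed whatever they showed. MRPL44, whose fold resembles a bacterial ribonuclease, was lower on every treated day, from -0.20 ± 0.05 at d1 (adjusted p = 0.000683) to -0.45 ± 0.05 at d15 (1.28e-08), and its d20 libraries of 703, 699 and 699 remained below the d0 libraries of 824, 875 and 930. MRPL41 did not pass the test at d4 (-0.05 ± 0.08, 0.601) and was lower at d15 (-0.29 ± 0.08, adjusted p = 0.00368). MRPS30, a large subunit protein by structure, read 578, 578 and 588 at d4, within its d0 range of 539 to 595, and its d15 value was -0.20 ± 0.06 (0.0062). Its d4 difference of 0.04 turned to -0.16 after rescaling to the same total (adjusted p = 0.0279).

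Of the small subunit, MRPS12 takes part in decoding. It read 747, 740 and 853 at d0, 1097, 1092 and 1013 at d10, and 492, 488 and 551 at d15. The d10 and d15 libraries lay above and below the d0 range, with log2 fold changes of 0.45 ± 0.07 (adjusted p = 9.05e-06) and -0.61 ± 0.07 (9.93e-08). MRPS16 and MRPS22, genes in which mutations cause mitochondrial disease, differed by -0.62 ± 0.05 (2.06e-10) and -0.57 ± 0.05 (1.05e-09) at d15, and neither passed at d10. MRPS17 had the largest decrease of the small subunit at d4, with 247, 201 and 227 against 387, 405 and 413 (-0.84 ± 0.07, 1.9e-09).

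MRPS23, a mitochondria-specific protein, had the largest rise of any member from d15 to d20. It read 674, 657 and 715 at d15 and 1466, 1460 and 1578 at d20, a log2 difference of 1.14 ± 0.08 (adjusted p = 5.83e-11), and the d20 libraries of MRPS23 were also above those of d0 (0.40 ± 0.08, 0.00023). MRPS25 did not return in the same way, with 418, 511 and 451 at d20 against 627, 601 and 622 at d0 (-0.43 ± 0.08, 0.00016), after -0.98 ± 0.08 at d15 (7.52e-10). MRPS27, a protein with pentatricopeptide repeats, was lower on every treated day, from -0.25 ± 0.04 at d1 (7.81e-06) to -0.56 ± 0.04 at d15 (1.73e-11). MRPS36 differed by -0.36 ± 0.06 at d20 (9.49e-06), and its product is now assigned to the α-ketoglutarate dehydrogenase complex, not to the ribosome.

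The 3 MRPS18 genes encode related proteins that occupy different places in the ribosome. At d15 their log2 fold changes were -0.26 ± 0.05 for MRPS18A (adjusted p = 0.000224), -0.09 ± 0.05 for MRPS18B (0.119) and -0.78 ± 0.11 for MRPS18C (1.69e-06). At d4 all of MRPS18A, MRPS18B and MRPS18C were lower, with log2 fold changes of -0.23, -0.35 and -0.81. MRPS18B is an example of a member lower at d4 and d7 and close to d0 at d15, where it read 2006, 1926 and 1973 against 2036, 2081 and 2159. Its d15 difference passed the test in 4 of the alternative analyses, at -0.25 to -0.09. The pseudogene MRPL45P2, at signals of 5.28 to 24.4, was lower at d7 and d10 and higher at d15 than at d10, and these calls were lost in several alternative analyses. MRPL42P5 did not pass at any day against d0, and reads of both could be shared with their parent genes.

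Genes outside the naming rule that act with the mitochondrial ribosome gave counts on the same scale. Of all genes tested, 35.3% were lower and 36.9% higher at d4, and 37.3% and 39.2% at d15. None of the lists was tested against these shares, and the short ones hold few genes. Of 6 ribosomal proteins listed under other symbols, 5 were lower at d4 and 5 at d15, and the other, DAP3, a small subunit protein, did not pass on those days and was higher at d20 (0.41, adjusted p = 2.03e-06). MRP63, the older symbol of MRPL57, was chosen after its values were seen and stood at -0.75 ± 0.08 at d15 (2.85e-08). Of 24 assembly factors tested, 17 were lower and 1 was higher at d4, and 19 were lower and 3 higher at d15. Mitochondrial translation factors (16 tested) had 14 lower at d4 and 14 at d15, with GFM1, an elongation factor, at -1.25 and SLIRP at -1.33. Mitochondrial aminoacyl-tRNA synthetases (17 tested) had 14 lower and 2 higher at d15. Of 8 genes for mitochondrial DNA transcription and replication, 5 were lower and 1 was higher at d15, with TFAM, which packages mitochondrial DNA, at -1.09.

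Of 8 nuclear regulators of mitochondrial genes tested, 5 were lower and 2 higher at d15, where 37.3% and 39.2% of all genes were called. GABPA and GABPB1, the subunits of the ETS factor GABP, stood at -0.73 (adjusted p = 2.1e-10) and -0.58 (2.51e-05) at d15. GABPA was also lower at d10 (-0.40, adjusted p = 3.48e-06) and d20 (-0.52, 9.7e-08), days on which GABPB1 was higher (0.54, 6.7e-05, and 0.33, 0.00708). MYC was higher at d10 (0.80 ± 0.23, 0.00476) and d15 (0.60 ± 0.23, 0.0236), and its d15 libraries of 5571, 5307 and 5439 lay above its d0 libraries of 3966, 3618 and 3204. The MYC libraries of d1 (5038, 4883 and 5227) and d4 (5166, 5310 and 5346) already lay above those of d0. At d7 MYC read 6945, 6459 and 2333, the last in the library that stood apart, and this split enters the shared SE. Mitochondrially encoded transcripts were not analysed here.

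On every treated day more than 40 of the 75 nuclear genes for the respiratory chain and ATP synthase were lower than in untreated cells. Of these, 70 were lower at d4, 69 at d7 and 67 at d15, with at most 1 higher. Of all genes tested, 35.3%, 32.6% and 37.3% were lower on these days. On d1 they were 50 lower and 0 higher, on d10 49 lower and 4 higher, and on d20 42 lower and 2 higher. All genes tested had 28.5%, 30.7% and 30.2% lower and 31.3%, 37% and 32.5% higher on d1, d10 and d20. The median log2 fold changes of these respiratory chain and ATP synthase genes were -0.45 at d4, -0.19 at d10 and -0.52 at d15. The cytosolic ribosomal protein genes had 71 of 80 lower at d4 (median -0.27). At d15, 13 were lower and 30 higher (median 0.06), where 37.3% and 39.2% of all genes were called, so the higher calls were near the background. Against d10, 66 of the 80 were higher at d15 (median 0.31, 39.3% of all genes), where 68 of the 77 members were lower (40.5% of all genes). From d15 to d20, 66 of the cytosolic genes were lower (36.3% of all genes) and 63 members higher (37.7%). These contrasts share their libraries, and the lists were not compared by a test.

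Proliferation genes were low on the days on which the members were low, but parted from them at d1. Of 20 such genes, including MKI67, TOP2A and MCM2, all 20 were lower at d4 and at d15 (35.3% and 37.3% of all genes). Their median log2 fold changes on these days were -0.74 and -1.77. At d10, 4 were higher and 4 lower (37% and 30.7% of all genes). At d1, 1 was higher and 10 were lower (31.3% and 28.5% of all genes), with a median of -0.19, where the members' median was -0.03. The summed signal of the proliferation genes lay between 96492 and 101360 at d0, 84583 and 86740 at d1, 57232 and 59160 at d4, 95037 and 95520 at d10, 29989 and 30909 at d15, and 95670 and 98991 at d20. At d7 the sums were 62051, 63800 and 83985, the highest in the library that also had the highest sum of the members. Both mean sums were higher at d4 than at d15, at 57906 and 30417 for proliferation genes and 70218 and 66236 for protein-coding members. The part of proliferation in the members' course was not tested.

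**Figure D5:**
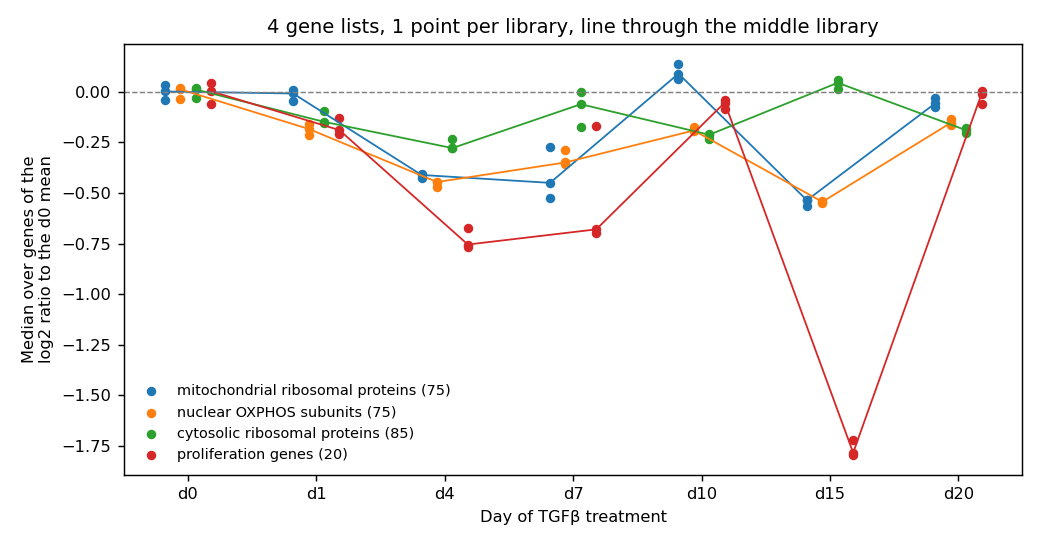
Median over genes of the log2 ratio to the d0 mean (vertical axis) for 4 gene lists by day (horizontal axis), with 1 point per library and a line through the middle library of each day. At d15 the libraries lie between -0.56 and -0.54 for the protein-coding members, -0.55 and -0.54 for nuclear OXPHOS subunits (respiratory chain and ATP synthase), 0.02 and 0.06 for cytosolic ribosomal proteins and -1.80 and -1.72 for proliferation genes.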

How the data were processed

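RNA-seq of HMLE cells on 7 timepoints of a TGFβ course, 3 libraries each, was analysed. The authors deposited 1 normalized signal for each gene and library. The submitters' processing notes name STAR 2.7, Salmon 1.4 and hg19, and the annotation is not given in the sources used here. Each deposited signal equalled whole reads over 1 size factor per library (100% of values within 0.1 of a read), and the factors matched a median-of-ratios calculation. Library columns carry no replicate numbers.

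Genes with a mean signal of at least 10 were tested on log2(signal + 1), which understates changes of low genes, with limma 3.58.1 in R 4.3.3 (1 mean per timepoint, eBayes with trend) and Benjamini-Hochberg adjustment within each contrast, at a threshold of 0.05. Alternatives were a pseudocount of 10, no filter, rescaling to the same total, quantile normalization, fits of only the groups compared, edgeR 4.0.16 and DESeq2 1.42.0 on recovered reads, and each library left out. Values over the protein-coding members only, and medians relative to that of all genes, were also tallied. The fitting script was tested on simulated data.

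The members and the gene lists were chosen with earlier results of these data known. The members named are the 3 largest increases and decreases called at each contrast, the 6 largest F values, those against the common direction, a set of members followed whatever they showed, and those at the minimum mean. C6orf125 was dropped from the list of other ribosomal proteins because it encodes none. Promoter windows came from RefSeq (GRCh38.p14), matched by symbol, with the first window listed for each gene. Head-to-head pairs had opposite strands, overlapping windows and starts that diverged or overlapped by at most 100 bases. Exon overlaps came from GENCODE, and none of its coordinates are given, since its build differs from that of the files. Figures were drawn with matplotlib 3.10.9.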

Additional observations from a re-analysis of the deposited data

Results flagged for a closer look

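The members' difference from d0 itself differed between d10 and d15. Of the 77 members, 68 were lower at d15 than at d10 by limma, against 40.5% of all genes tested. The difference between d15 and d20 went the opposite way, with 63 members higher at d20, against 37.7% of all genes tested. The proliferation genes turned on the same days, and their part was not tested.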

How the results depend on the processing

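No paired analysis was possible because the library columns carry no replicate numbers. Of 31 main results with 447 alternative values, 404 kept their direction and size, 41 moved and 2 reversed. The tally includes values over the protein-coding members only and medians taken relative to that of all genes. With the deposited scaling these lie close to the main values by design. Rescaling to the same total gave 2 members higher and 53 lower at d1, 10 and 37 at d10, 5 and 52 at d20, and 1 higher at d15, with medians over all members of -0.22, -0.61, -0.60, -0.12, -0.69 and -0.26 from d1 to d20, -0.53 for d15 against d10 and 0.43 for d20 against d15. Quantile normalization gave 7 higher and 31 lower at d1, 20 and 23 at d10, 2 lower at d10 than at d7, and medians of -0.11 at d1, -0.50 at d4, -0.04 at d10, -0.56 at d15, -0.12 at d20, -0.49 for d15 against d10 and 0.43 for d20 against d15. Both scalings thus turned the d10 median, and the counts at d1, d10 and d20 depend on the scaling. After rescaling, the median of all genes was -0.19 at d1 and -0.20 at d10 and d20. Relative to it the protein-coding members stood at -0.03, 0.07 and -0.06. After quantile normalization they stood at -0.05 at d1 and -0.01 at d10 relative to all genes. The shares of all genes called under these scalings are not given here, so the counts lack a background. With edgeR the medians were -0.45 at d4 and -0.40 for d4 against d1. Leaving out 1 library gave 5 to 12 members higher at d1, 0 to 1 at d7, 1 to 2 lower at d20 than at d15 and 1 to 2 lower at d10 than at d7, with medians of 0.06 to 0.11 at d10, 0.45 to 0.49 for d20 against d15 and -0.39 to -0.37 for d4 against d1. The 5 at d1 were without the first d0 library, and the 1 at d7 was without the first d7 library.

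Of 65 single-gene results with 845 values, 814 kept their call, 22 were weaker, 5 stronger and 4 reversed. MRPL10 at d4 was -0.16 after rescaling and -0.04 after quantile normalization, and MRPS30 at d4 was -0.16 and 0.00. MRPL45 and MRPL49 lost their d20 decrease against d15 in several fits without 1 library, and MRPL45P2 lost calls in 10 alternatives. The depth of every library allows small folds to be called in these genes, and 3 libraries per timepoint limit the estimate of spread.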
